A study of Mus musculus with 6 samples.

Results

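The kidney makes active vitamin D and sets how much calcium and phosphate leave the body. The 10 genes described here carry that task: Cyp2r1, Cyp27b1 and Cyp24a1, which make and break down vitamin D hormones, Vdr, the vitamin D receptor, Pth1r, the receptor of parathyroid hormone, Kl, which encodes klotho, Calb1 and Trpv5, which move calcium through distal tubule cells, and Slc34a1 and Slc34a3, which take phosphate back from the urine. They were listed by name, and all 10 have a probe set that names them alone, among 22180 genes measured in this way. Gene expression in kidneys of 3 diabetic db/db mice was compared with that in 3 non-diabetic db/m littermates, all male, aged 22 weeks and on the C57BL/KsJ background, with 1 Affymetrix array per mouse. The mice were 10 weeks old at the start and were kept on standard chow for 12 weeks, and the labels name no treatment. The db allele is a point mutation of the leptin receptor gene Lepr, and by the usual naming db/m mice carry 1 copy of it, although the sample labels do not spell this out. Every cell of a db/db mouse carries the mutation and such mice are obese as well as diabetic, so effects of leptin signalling, obesity and diabetes cannot be told apart here. The methods name the renal cortex as the tissue and the labels name the kidney.

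In the textbook account, a hydroxylase of the liver (Cyp2r1) forms the circulating storage form of vitamin D, and cells of the proximal tubule turn it into the active hormone through Cyp27b1. Parathyroid hormone raises Cyp27b1 in these cells, while the bone hormone FGF23, acting with klotho, and the active hormone itself lower it and raise Cyp24a1, which inactivates both forms. Farther along the nephron, calcium enters cells of the distal convoluted and connecting tubule through the channel TRPV5, is buffered by calbindin and leaves through the sodium-calcium exchanger and the plasma membrane calcium pump. Phosphate is taken up in the proximal tubule by the sodium-coupled carriers NaPi-IIa (Slc34a1) and NaPi-IIc (Slc34a3), which parathyroid hormone and FGF23 remove from the brush border.

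Values are RMA signals on the log2 scale, so a difference of 1 is a doubling of signal, and a log2 fold change is the mean of db/db mice minus the mean of db/m mice. Array medians lay between 3.36 and 3.43, and correlations between arrays over all probe sets between 0.984 and 0.99. Lepr, whose point mutation need not alter the signal, measured 3.98, 3.59 and 3.61 in db/m mice and 3.77, 3.54 and 4.28 in db/db mice. Markers of the proximal tubule were bright, with a mean signal over 11 genes of 10.99 to 11.17 in db/m mice and 11.04 to 11.10 in db/db mice. Markers of the collecting duct were also present (7 genes, means of 8.24 to 8.54 over the 6 mice). The parathyroid marker Pth stayed between 1.59 and 2.10, and the mean over 6 adrenal cortex markers between 2.41 and 2.71, both below the array medians. Single markers of these lists lay above the medians in every mouse, Chga of the parathyroid list at 3.57 to 4.05 and Star of the adrenal list at 3.61 to 4.12. The db/db replicate 3 had a high signal of the injury marker Lcn2, at 7.87 against 5.44 and 5.13 in the other db/db mice. Of the other tubular injury markers, Krt20 and Sox9 were also highest in this mouse, at 3.17 and 4.94. Havcr1 and Vcam1, at 3.57 and 5.98, were not, and reached 3.71 and 6.06 in db/m replicate 1. The clock genes Arntl and Npas2 were highest in db/m replicate 3, and their means were lower in db/db mice. Arntl measured 5.41, 5.59 and 6.88 in db/m mice and 4.69, 4.71 and 5.48 in db/db mice, with a log2 fold change of -1.0 (adjusted p = 0.353). Npas2 measured 5.70, 5.97 and 7.85 in db/m mice and 4.68, 4.99 and 4.89 in db/db mice, every db/db mouse below, with a log2 fold change of -1.65 (adjusted p = 0.207). Neither passed, and Lcn2, Arntl and Npas2 were picked out after their values were seen.

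With limma's test, adjusted over all genes by the Benjamini-Hochberg method, 0 of the 10 genes passed an adjusted p under 0.05 in either direction, where 0.194% of all genes were higher and 0.289% lower. Before adjustment, at p under 0.05, 4 of the 10 were higher (Cyp27b1, Calb1, Trpv5 and Slc34a3), against 5.92% of all genes, and 0 were lower, against 4.7%. The methods' t-test gave the same counts, 4 and 0 unadjusted and 0 after adjustment. With a 1.5-fold change asked for beside the unadjusted p, Cyp27b1 and Calb1 were higher, 2 of 10 against 1.02% of all genes. In Cyp27b1, Calb1, Trpv5 and Slc34a3 every db/db mouse lay above every db/m mouse, which held for 9.17% of all genes. In Pth1r every db/db mouse lay below, as in 7.62% of all genes, by a gap of 0.01. The median log2 fold change of the 10 genes was -0.02, and that of all genes was 0.

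**Figure D1:**
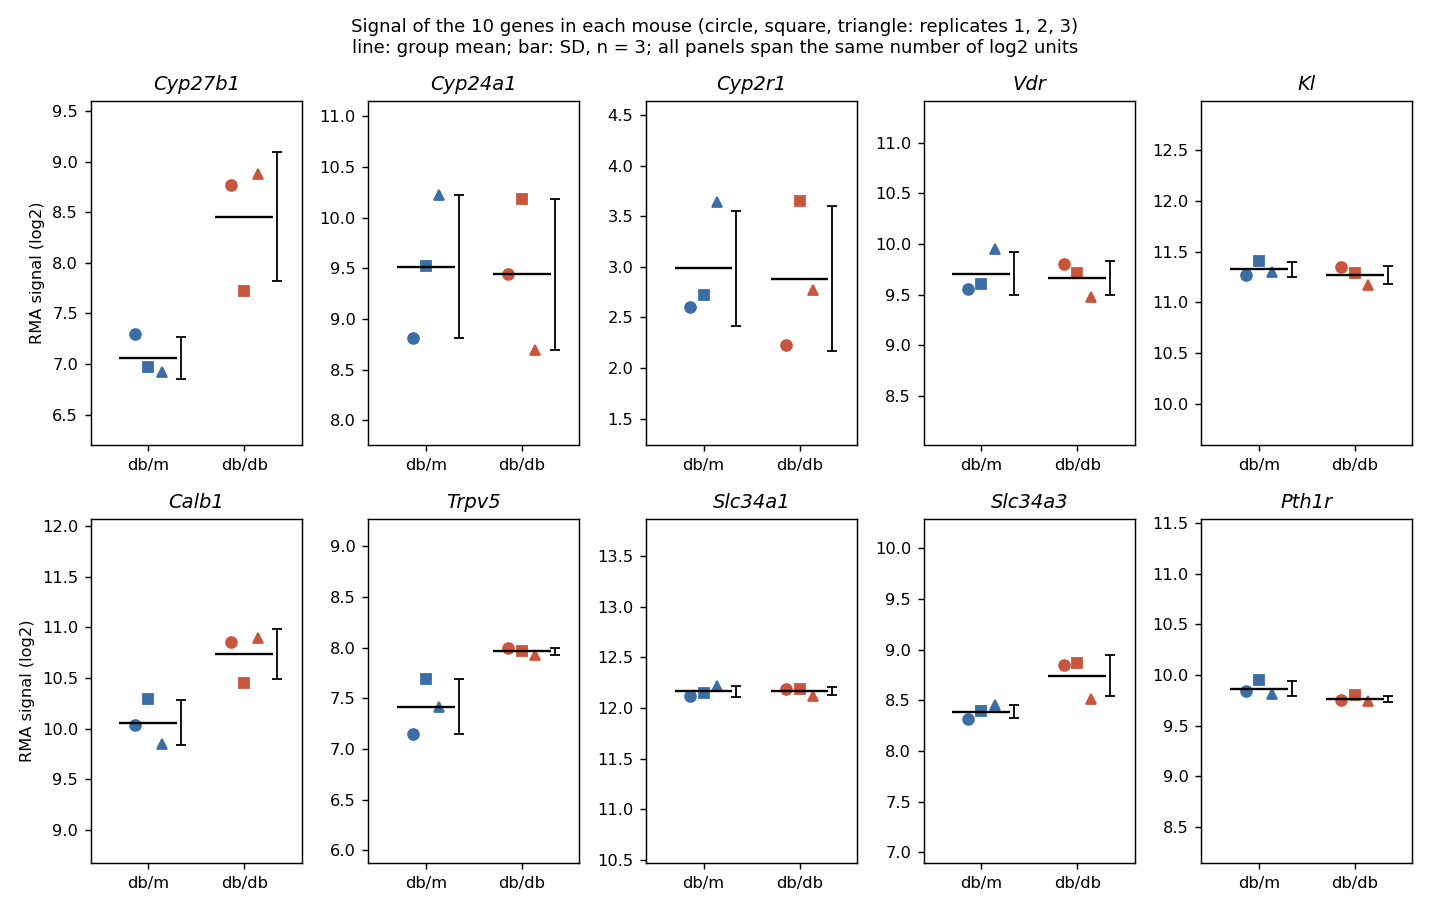
RMA signal on the log2 scale (vertical axis) of the 10 genes in each of 3 db/m and 3 db/db mice, with the group mean and SD. Cyp27b1, Calb1, Trpv5 and Slc34a3 have all db/db mice above all db/m mice, while Cyp24a1 and Cyp2r1 spread over more than 1 log2 unit within each group.

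The promoters of the genes whose db/db mice all lay above are shown where RefSeq gives one, since these genes differed in the same direction. The windows run from 250 bases before to 50 after the start of the gene in the reference strain (RefSeq, GRCm38.p6), 8 of the 10 genes have an entry in 10 windows, and Calb1 has none. Capitals mark the core hexamers that nuclear receptors such as the vitamin D receptor can bind, searched on both strands. The consensus hexamer is AGGTCA, and the variants searched for were GGGTCA, as well as AGTTCA, and lastly GGTTCA. The matches did not overlap each other.
Cyp27b1, chr10:127047996-127048295, plus strand: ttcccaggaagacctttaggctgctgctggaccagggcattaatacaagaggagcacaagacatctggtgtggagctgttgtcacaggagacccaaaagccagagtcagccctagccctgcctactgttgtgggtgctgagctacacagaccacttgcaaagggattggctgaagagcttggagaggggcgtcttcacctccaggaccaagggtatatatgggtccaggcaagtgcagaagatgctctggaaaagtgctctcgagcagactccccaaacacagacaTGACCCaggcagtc
Trpv5, chr6:41680674-41680973, minus strand: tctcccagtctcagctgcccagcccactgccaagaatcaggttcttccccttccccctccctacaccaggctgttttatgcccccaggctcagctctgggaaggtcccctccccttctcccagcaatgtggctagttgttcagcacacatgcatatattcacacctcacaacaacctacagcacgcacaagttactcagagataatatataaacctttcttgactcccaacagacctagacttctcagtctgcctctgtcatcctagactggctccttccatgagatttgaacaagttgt
Slc34a3, chr2:25234185-25234484, minus strand: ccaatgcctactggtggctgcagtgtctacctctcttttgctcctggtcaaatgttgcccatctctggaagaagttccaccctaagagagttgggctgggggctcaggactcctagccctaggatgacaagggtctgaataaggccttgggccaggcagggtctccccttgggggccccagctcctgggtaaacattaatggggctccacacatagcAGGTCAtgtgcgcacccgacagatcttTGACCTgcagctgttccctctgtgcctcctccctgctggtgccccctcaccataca
The Cyp27b1 window held 1 such hexamer (GGGTCA on the opposite strand), the Slc34a3 window held 2 (AGGTCA on each strand) and the Trpv5 window held 0. Over all members, 6 of 10 windows held at least 1, and so did 43.7% of 32851 promoter windows of all genes. A direct repeat of these hexamers with 3 bases between them, the usual element of the vitamin D receptor with its partner RXR, was found in 0 of the 10 windows and in 0.0396% of all windows. These are matches of letters and no evidence of binding.

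Cyp27b1, the enzyme that makes active vitamin D, had the largest log2 fold change of the 10 genes. Signals of db/m mice were 7.30, 6.97 and 6.92, and those of db/db mice were 8.77, 7.72 and 8.88. The groups did not overlap, and db/db replicate 2 stood closer to the db/m mice than the other db/db mice did. The means were 7.06 ± 0.21 (SD, n = 3) and 8.46 ± 0.64 (SD, n = 3). This is a log2 fold change of 1.39 (standard error 0.27) or 2.63-fold, with a 95% interval of 1.72 to 4.02, and the adjusted p of 0.0809 did not pass. Without db/db replicate 2 the log2 fold change was 1.76 and passed (adjusted p = 0.00479), and over all alternatives the adjusted p ran from 0.00479 to 0.478. The study picked this gene out as higher on the same arrays, and the direction here therefore adds no independent evidence. It also reported significantly higher Cyp27b1 mRNA in db/db mice by quantitative PCR, which the array values do not cover. Macrophages can also express Cyp27b1, so their markers are given beside it. The 7 macrophage and T cell markers all had negative log2 fold changes, with a summed linear signal of 335 to 348 in db/m mice and 210 to 230 in db/db mice. Of these, Ccl5 and the T cell gene Cd3e fell (adjusted p = 0.0162 and 0.0484), 2 of 7 against 0.289% of all genes. The macrophage markers Csf1r, Adgre1 and Cd68 had log2 fold changes of -0.48, -0.28 and -0.21. None of them passed (adjusted p = 0.146, 0.457 and 0.5), and the part of macrophages and T cells in the Cyp27b1 signal was not tested.

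Cyp24a1, which breaks vitamin D hormones down, varied widely between mice of 1 group. Its signal was 8.81, 9.52 and 10.22 in db/m mice and 9.44, 10.19 and 8.69 in db/db mice. The groups overlapped almost fully, and each spanned at least 1.40 log2 units. The log2 fold change was -0.07 (standard error 0.40, adjusted p = 0.967), with a 95% interval of -0.97 to 0.83, or 0.509- to 1.78-fold. The within-group SD of 0.73 was larger than that of 99.7% of all genes.

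Cyp2r1, the hydroxylase that acts mainly in liver, was dim in the kidney. It measured 2.60, 2.72 and 3.64 in db/m mice and 2.23, 3.65 and 2.77 in db/db mice. In each group 1 mouse stood above the array medians and the other mice below, and the log2 fold change was -0.10 (standard error 0.36, adjusted p = 0.944).

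Within both groups the mice ranked in opposite order for Cyp27b1 and Cyp24a1. Among db/m mice replicate 1 had the highest Cyp27b1 signal and the lowest Cyp24a1 signal, and replicate 3 had the reverse. Among db/db mice replicate 3 had the highest Cyp27b1 signal and the lowest Cyp24a1 signal, and replicate 2 had the reverse. Relative to their group means, Cyp27b1 and Cyp24a1 stood at 0.42 and -0.75 in db/db replicate 3, at -0.74 and 0.75 in db/db replicate 2 and at 0.24 and -0.70 in db/m replicate 1. With 3 mice per group no correlation was computed and the pattern, which was noticed in the data, was not tested.

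**Figure D2:**
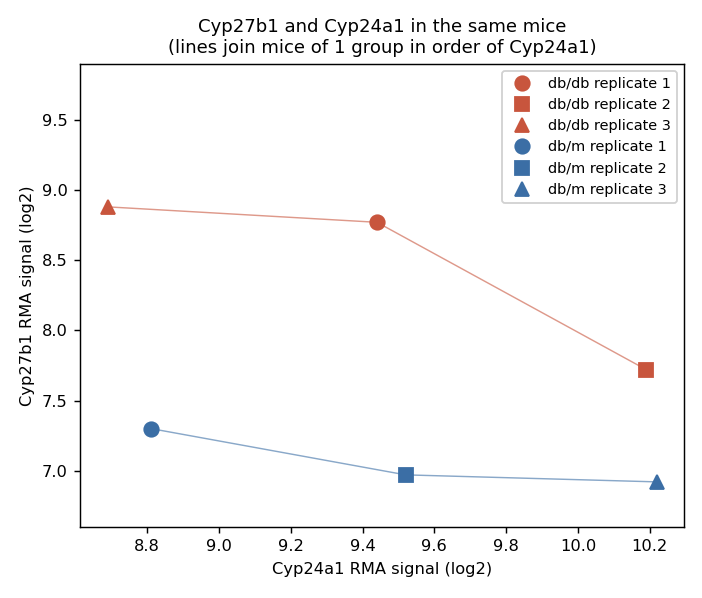
RMA signal (log2) of Cyp27b1 on the vertical axis against Cyp24a1 on the horizontal axis in each mouse, with lines that join mice of the same group. Both lines fall from left to right, and the db/db mice, at 7.72 to 8.88, lie above the db/m mice, at 6.92 to 7.30, at any level of Cyp24a1.

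The 3 receptor genes had log2 fold changes of -0.04, -0.06 and -0.10. Vdr, through which active vitamin D acts on its target genes, measured 9.56, 9.61 and 9.95 in db/m mice and 9.80, 9.71 and 9.48 in db/db mice. The groups overlapped, and the log2 fold change was -0.04 (standard error 0.14, adjusted p = 0.936), with a 95% interval of -0.36 to 0.27. Kl, the co-receptor of FGF23, measured 11.27, 11.41 and 11.30 in db/m mice and 11.35, 11.29 and 11.17 in db/db mice. Its log2 fold change was -0.06 (standard error 0.10, adjusted p = 0.887), and the 95% interval of 0.817- to 1.13-fold is narrow beside that of Cyp24a1. Pth1r, which receives parathyroid hormone in proximal tubule cells and podocytes, measured 9.84, 9.95 and 9.81 in db/m mice and 9.75, 9.80 and 9.74 in db/db mice. Every db/db value was lower, but the log2 fold change was only -0.10 (standard error 0.10, adjusted p = 0.767). Its within-group SD of 0.06 was larger than that of only 4.17% of all genes.

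Calb1 and Trpv5, which act one after the other in distal calcium reabsorption, both had higher signals in every db/db mouse. Calb1, the cytosolic calcium carrier calbindin, measured 10.04, 10.29 and 9.85 in db/m mice and 10.86, 10.45 and 10.90 in db/db mice. The lowest db/db mouse, replicate 2, stood 0.16 above the highest db/m mouse. The log2 fold change was 0.68 (standard error 0.16, adjusted p = 0.135), or 1.6-fold with a 95% interval of 1.25 to 2.04. Trpv5, the calcium channel of the apical membrane, measured 7.15, 7.69 and 7.41 in db/m mice and 8.0, 7.97 and 7.93 in db/db mice. The 3 db/db mice lay within 0.07 of each other, while the db/m mice spanned 0.54. The log2 fold change was 0.55 (standard error 0.14, adjusted p = 0.166), or 1.46-fold with a 95% interval of 1.18 to 1.82. Neither gene passed. In each of the 6 fits that leave out 1 mouse, Cyp27b1, Calb1 and Trpv5 had an unadjusted p under 0.05 and a positive log2 fold change, and Slc34a3 did in 3 of 6.

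Of the phosphate carriers of the proximal tubule, Slc34a1 had nearly equal means in both groups, and Slc34a3 had a higher signal in every db/db mouse. Slc34a1, the main carrier in adult mice, measured 12.12, 12.15 and 12.22 in db/m mice and 12.19, 12.19 and 12.12 in db/db mice. The groups overlapped, with a log2 fold change of 0.00 (standard error 0.10, 95% interval -0.22 to 0.22). These signals lie near the top of the arrays (12.76), where array signals can be compressed. Slc34a3 measured 8.32, 8.40 and 8.45 in db/m mice and 8.85, 8.87 and 8.51 in db/db mice. The db/db replicate 3 stood only 0.06 above the highest db/m mouse. The log2 fold change was 0.35 (standard error 0.12, adjusted p = 0.339), or 1.28-fold with a 95% interval of 1.05 to 1.55, and did not pass. Whether the difference between the carriers exceeds the spread between mice was not tested.

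The other genes of the pathway were taken from 4 lists, in which 61 of 67 genes were measured, and limma called 1 of them. In the list of calcium and magnesium transport, 1 of 20 genes rose and 0 fell after adjustment over all genes (0.194% and 0.289% of all genes). With an unadjusted p under 0.05, 6 were higher and 1 lower (5.92% and 4.7% of all genes). In 8 of the 20 every db/db mouse lay above every db/m mouse (9.17% of all genes). The gene that rose was Slc8a1, the sodium-calcium exchanger that carries calcium out of distal tubule cells. It measured 6.95, 7.31 and 7.10 in db/m mice and 8.07, 8.03 and 7.91 in db/db mice. The db/db mice were all higher, by at least 0.60 log2 units. The log2 fold change was 0.88 (standard error 0.12, adjusted p = 0.0179), or 1.84-fold with a 95% interval of 1.53 to 2.22. In the fits that leave out 1 mouse it passed only without db/m replicate 2 (0.98, adjusted p = 0.0261). In the other 5 its adjusted p was 0.0529 to 0.1 with log2 fold changes of 0.80 to 0.93. It also did not pass with the methods' t-test (adjusted p = 0.33), with moderation and adjustment over all probe sets (adjusted p = 0.116) or with the replicate number as a block (adjusted p = 0.0555).

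Of these 20 calcium genes, 19 had a positive log2 fold change, with a median of 0.20, where the median of all genes was 0. Sgk1, a kinase that aldosterone and glucocorticoids induce, stood at a log2 fold change of 0.72 (adjusted p = 0.19). Klk1, tissue kallikrein of the connecting tubule, and Umod, uromodulin of the thick ascending limb, were the brightest of the list, at 0.16 (adjusted p = 0.632) and 0.15 (adjusted p = 0.692), and probes of Klk1 may also detect its close paralogs. Other steps of the route were picked out after their values were seen. Atp2b4, a plasma membrane calcium pump, showed a log2 fold change of 0.47 (adjusted p = 0.225). The other pumps of the list, the brighter Atp2b1 and the dimmer Atp2b2, stood at 0.15 and 0.13 (adjusted p = 0.78 and 0.801). S100g, a small calbindin, showed 0.27 (adjusted p = 0.452), and Trpv6, the relative of TRPV5, 0.07 (adjusted p = 0.896). Cldn14, which closes the paracellular path for calcium in the thick limb, was the gene with a negative value, at -0.33 (adjusted p = 0.246), and its signals of 2.65 to 3.07 lay below the array medians.

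**Figure D3:**
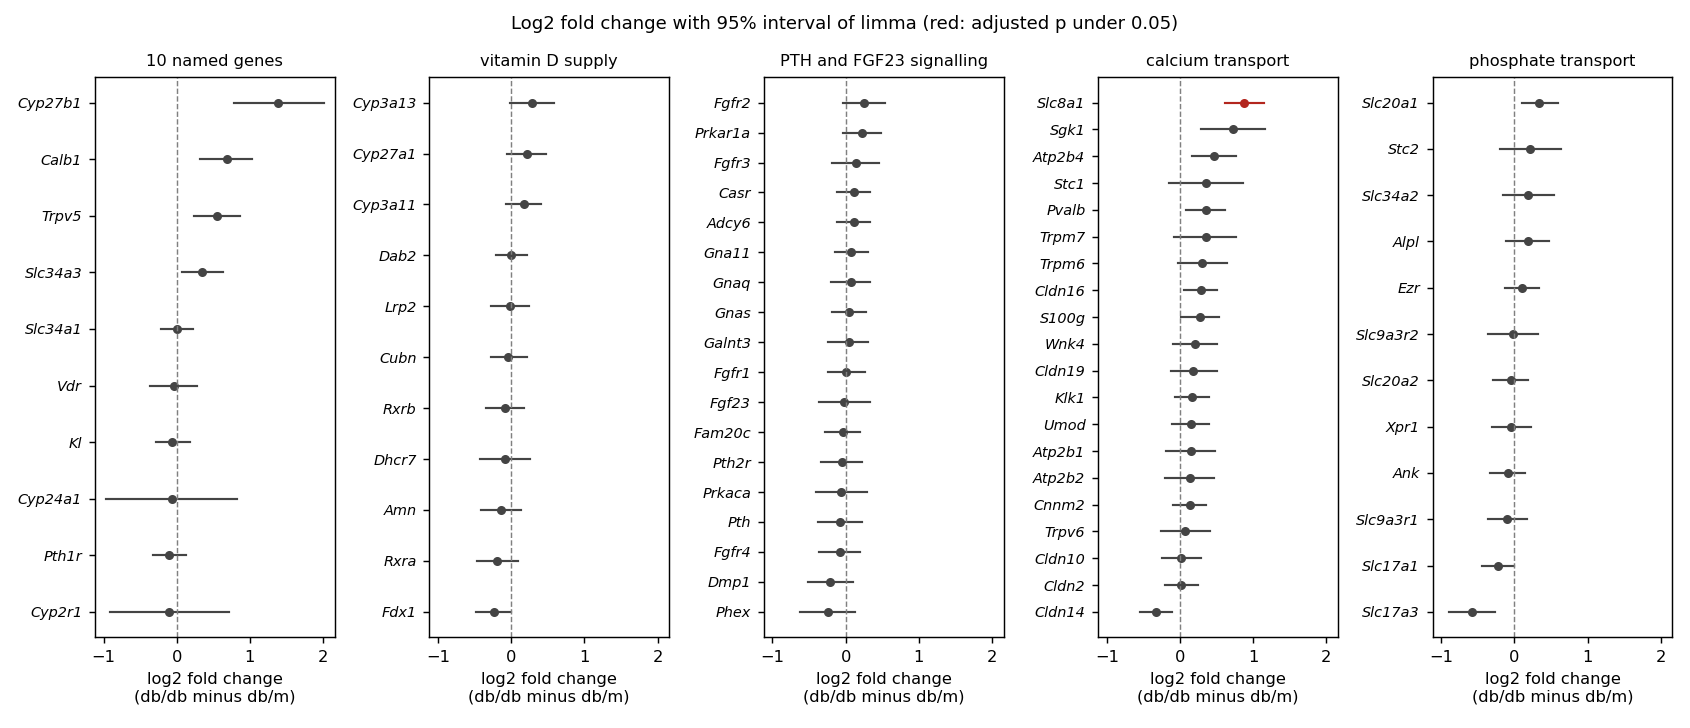
Log2 fold change (horizontal axis, db/db minus db/m) with limma's 95% interval for the 10 genes and for each measured gene of the 4 pathway lists, ordered by size, with genes that passed an adjusted p under 0.05 in red. Only Slc8a1 is red, and 19 of 20 calcium transport genes lie to the right of 0 against 5 of 12 phosphate transport genes.

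In the list of phosphate transport, 0 of 12 measured genes passed, and there was a median log2 fold change of -0.03. With an unadjusted p under 0.05, 1 was higher and 1 lower (5.92% and 4.7% of all genes). Slc17a3, a relative of the organic anion and phosphate carriers, had the lowest value, at -0.58 (adjusted p = 0.151), and every db/db mouse, at 9.66, 9.43 and 9.20, lay below every db/m mouse, at 10.17, 10.01 and 9.86. Its relative Slc17a1 showed a log2 fold change of -0.23 (adjusted p = 0.472). Slc20a1, a phosphate carrier found in most cells, had one of 0.34 (adjusted p = 0.286), and Alpl, tissue-nonspecific alkaline phosphatase, one of 0.18 (adjusted p = 0.674).

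In the list of vitamin D supply, 0 of 11 measured genes passed, and the median was -0.04. An unadjusted p under 0.05 was found for 0 higher and 1 lower genes (5.92% and 4.7% of all genes). The list names 13 genes, and Gc and Fdxr were not among those analysed. The study reported Gc as higher in db/db mice on its arrays and by quantitative PCR. The lower one was Fdx1, the ferredoxin that passes electrons to mitochondrial P450 enzymes such as Cyp27b1 and Cyp24a1, at -0.24 (adjusted p = 0.47). Lrp2 and Cubn, which encode megalin and cubilin and take up filtered vitamin D with its carrier protein, had log2 fold changes of -0.01 and -0.04 (adjusted p = 0.98 and 0.929). Cyp3a13, a P450 enzyme with signals of 2.08 to 2.65, had one of 0.28 (adjusted p = 0.5). In the list of parathyroid hormone and FGF23 signalling, 0 of 18 measured genes passed, 0 had an unadjusted p under 0.05, and the median was 0.03. Its brightest genes Gna11, a G protein subunit, and Prkaca, the catalytic subunit of protein kinase A, stood at 0.08 (adjusted p = 0.823) and -0.06 (adjusted p = 0.925). The regulatory subunit Prkar1a and the growth factor receptor Fgfr2 stood at 0.22 and 0.25 (adjusted p = 0.548 and 0.536). The methods' t-test called 0 of the 71 genes of the lists and the set of 10 after adjustment.

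Most markers of the segments after the proximal tubule had positive log2 fold changes. So did the 4 measured podocyte markers, with a median of 0.13, and 4 of 5 tubular injury markers, with a median of 0.21. In both of those lists 0 passed. In bulk kidney RNA, more cells of a type and more RNA per cell cannot be told apart. Apart from Kl, Calb1 and Trpv5, the list of the distal convoluted and connecting tubule held 6 genes, which were Slc12a3, Pvalb, Trpm6, Slc8a1, Klk1 and Wnk1. All 6 had positive log2 fold changes, with a median of 0.29. The 1 that passed (0.194% of all genes higher) was Slc8a1, already counted in the calcium list. An unadjusted p under 0.05 was found for 2 of the 6 (5.92% of all genes higher). Their summed linear signal was 6375 to 7194 in db/m mice and 7719 to 8095 in db/db mice. Such a sum weighs bright genes most, and the brightest were Klk1 and Slc12a3, with mean signals of 11.95 and 10.95, of which neither passed. Of the 6 genes, 4 are also in the calcium list, and the other 2, Slc12a3 and Wnk1, had log2 fold changes of 0.27 and 0.20 (adjusted p = 0.47 and 0.563). Kl, which is made in the same segment, stood at -0.06. The 5 markers of the thick ascending limb were also all positive, with a median of 0.32, and 0 passed. Umod and Cldn16 are also in the calcium list, and the other 3 had a median of 0.38. Summed signals of the 5 were 4652 to 5181 in db/m mice and 5309 to 6332 in db/db mice, and the brightest, Umod, had a log2 fold change of 0.15. An unadjusted p under 0.05 was found for 4 of the 5 (5.92% of all genes higher), and Ptger3 stood at 0.82 (adjusted p = 0.119). Of the 5 intercalated cell markers 4 were positive, with a median of 0.28, from Foxi1 at -0.10 (adjusted p = 0.828) to the proton pump subunit Atp6v1g3 at 0.44 (adjusted p = 0.197). Of the 7 collecting duct markers 6 were positive, with a median of 0.20, and the water channel Aqp4 stood at -0.50 (adjusted p = 0.35). In both lists 0 passed. Of the 4 inner medulla markers, Slc14a1 and Slc14a2 stood at 0.79 and 0.76 (adjusted p = 0.218 and 0.54). Fxyd4 stood at -0.07 (adjusted p = 0.915), and Aqp4 is also in this list. How much medulla each sample held was not tested. Markers of the proximal tubule had a median of -0.01 with summed signals of 23025 to 25996 and 23756 to 24644. Of these 11 markers 5 were positive and 6 negative, and 0 passed. Every db/db mouse lay above every db/m mouse in 3 of them and below in 3 (9.17% and 7.62% of all genes). The part of these shifts in the values of Calb1, Trpv5 and Slc8a1 was not tested.

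**Figure D4:**
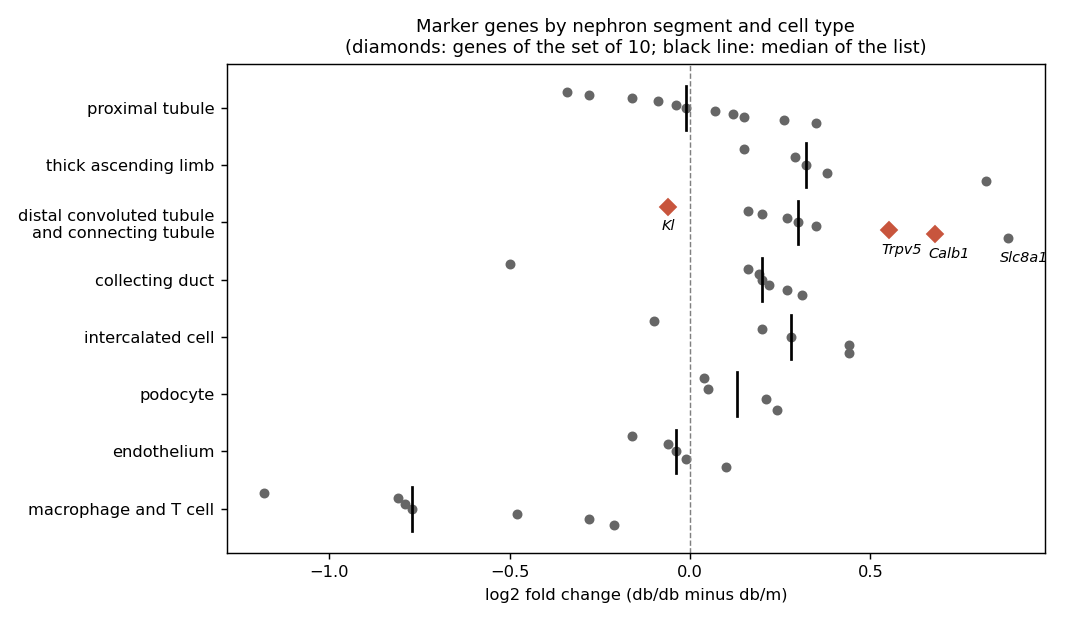
Log2 fold change (horizontal axis) of each marker gene in 8 lists of nephron segments and cell types, with the median of each list as a black line and Kl, Trpv5 and Calb1 as diamonds. The medians are -0.01 for the proximal tubule, 0.32 for the thick ascending limb, 0.30 for the distal convoluted and connecting tubule and -0.77 for macrophages and T cells.

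Likeness of pattern was measured as the root mean square difference, over the 6 arrays, between log2 signals centred on the mean of each gene. For Cyp27b1 the nearest genes were Mki67, a marker of dividing cells, at 0.284, Tmem207 at 0.302 and Arhgap11a at 0.323, and among all genes 53 were nearer to Cyp27b1 than Calb1 was, at 0.457. For Calb1 the nearest were Pik3r3 at 0.094, Mrgprx2 at 0.103 and Cd59a at 0.11. For Trpv5 they were Krt19, an epithelial keratin, at 0.06, Adamtsl3 at 0.076 and Zfp759 at 0.078. For Slc34a3 they were Rassf3 at 0.035, Dnah5 at 0.047 and Igsf9 at 0.049. None of these 12 genes passed the adjusted test, with adjusted p values from 0.0784 to 0.388. The measure includes the difference between groups, so genes that differ by a similar amount come out as alike.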

How the data were processed

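Kidney RNA of 3 db/db and 3 db/m mice, 100 ng per array, was measured on 1 array per mouse, and groups were taken from the sample labels. The authors deposited log2 signals made by RMA in Affymetrix Expression Console per the labels, and its version, any filter and the genome build are not given in the sources used here. RMA equalizes the arrays and compresses changes of dim and very bright probe sets. The table holds 41345 probe sets, of which 23521 name 1 gene in the annotation that matches their identifiers. This annotation belongs to another array than the methods name. Each gene was taken from the brightest probe set naming it alone, and the 10 genes have 1 each. All 10 matched RefSeq (GRCm38.p6) by gene identifier.

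Groups were compared with limma 3.58.1 in R 4.3.3 (lmFit and eBayes with default settings, no covariate, two-sided), with Benjamini-Hochberg adjustment over 22180 genes. The code was tested on simulated data. An exact permutation test of 3 against 3 mice cannot go below p = 0.1 and was not used. Arrays give no counts, and 3 mice per group limit the precision. The labels name no batch, and only say that replicates are biological. The genes, lists and tests were chosen with earlier results of these data known, and pathway genes are named if called, among the brightest 2 or among the lowest 2 p values of a list. Patterns of likeness were sought for members with an unadjusted p under 0.05, 3 genes each. Alternatives were other normalizations, a filter on dim probe sets, other variance models and tests, other thresholds, a replicate block and single mice left out. Promoters were to be shown of members that were called or hold the repeat element, which gave none, so those shown were chosen after the values were seen. Of 67 listed pathway genes, 6 were not analysed here.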

Additional observations from a re-analysis of the deposited data

How the results depend on the processing

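The count of members called was 1 at an adjusted p under 0.1 (Cyp27b1), 2 at the study's thresholds (Cyp27b1 and Calb1), and 0 to 1 with single mice left out, the 1 being Cyp27b1 without db/db replicate 2. Over all 22180 genes, 96 were higher and 97 lower at an adjusted p under 0.1, and 227 and 179 at the study's thresholds. With these other settings the count of members called is given next. With quantile normalization, median centring, a filter on dim probe sets, the methods' t-test, variances with a trend and robust fit, the mean over a gene's probe sets, moderation over all probe sets and the replicate block 0 members were called. Of the 61 pathway genes, 1 (Slc8a1) was called. The count was 0 with the methods' t-test, 0 with moderation and adjustment over all probe sets, 0 with the replicate block (adjusted p of Slc8a1 0.0555), 2 at the study's thresholds (with Sgk1), and 0 to 1 with single mice left out.

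Replicate numbers did not pair the mice. Deviations of same-numbered mice correlated at 0.04, -0.05 and -0.08, and 2 of 6 arrays correlated best with their own number. Over all genes, 43 were called higher and 64 lower, against 19 and 42 with the replicate block, 0 and 2 with the methods' t-test, 0 and 9 over all probe sets, and 8 to 26 and 20 to 43 with single mice left out, where fewer mice are fitted. Log2 fold changes of Cyp27b1 ran from 1.18 to 1.76, of Calb1 from 0.57 to 0.82, of Trpv5 from 0.42 to 0.69 and of Slc34a3 from 0.29 to 0.47. Signs differed from the reported one in 2 alternatives each for Cyp24a1, Cyp2r1 and Vdr, which passed in none. Slc34a1, reported at 0.00, ran from -0.10 to 0.03 and also passed in none. Cyp2r1 has no value with the filter on dim probe sets, which removes it.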
